A study of Mus musculus with 6 samples.

Results

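The phosphoglycerate mutase family and the enzymes that bypass it or clear a side product were examined as 6 genes, *Pgam1*, *Pgam2*, *Bpgm*, *Pgam5*, *Minpp1* and *Pgp*, chosen by name as the mutases with their fold relative *Pgam5* and as enzymes that act on the bisphosphorylated intermediate or on a side product. All 6 were among the 56748 genes of the deposited count table. The libraries came from unsorted CD4 T cells of WT C57BL/6 mice aged 6 to 10 weeks, which the labels trace to splenocytes and the study's methods to spleen and lymph nodes. Naïve cells were kept for 3 days under Treg polarizing conditions with antisense oligonucleotides (ASOs, made to pair with a chosen RNA) at 10 μM, either scrambled (n = 3) or directed at *Pgam* (n = 3). The ASO sequences were proprietary, so where on each transcript they bind is not given in the sources used here. Library totals lay between 15860476 and 18032805 counts. The study calls its RNA-seq replicates biological, but neither it nor the labels say whether each came from its own animal, so p-values measure the spread between these samples.

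As background, PGAM1 and PGAM2 interconvert 3-phosphoglycerate and 2-phosphoglycerate in glycolysis, PGAM1 in most tissues and PGAM2 mainly in muscle. BPGM, best known from red blood cells, makes the bisphosphorylated intermediate that primes the mutases, and MINPP1 can take a phosphate from that intermediate and so reach 2-phosphoglycerate without a mutase. PGP hydrolyses phosphoglycolate, a side product that otherwise builds up beside glycolysis, while PGAM5 keeps the mutase fold but acts as a protein phosphatase of mitochondria.

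*Pgp* was the 1 gene of the 6 that differed between the labels by the test across all genes. It was higher in all 3 libraries labelled *Pgam* ASO. Genes were called at an adjusted p under 0.05 (edgeR, quasi-likelihood, adjusted by Benjamini and Hochberg over all tested genes), and a fold change is the *Pgam* label over the scrambled label. Of 14936 tested genes, 2565 were called, or 17.2% (8.03% higher and 9.15% lower under the *Pgam* label), against 1 of 6 here, which is near that background. That number of called genes became 620 and 1256 without replicate 1 or 2 labelled scrambled ASO, and 871 and 391 without replicate 1 or 2 labelled *Pgam* ASO. The median log2 fold change was 0.14 over the 6 genes and -0.0061 over all tested genes. The groups did not overlap for *Pgp* and *Pgam5*, 2 of the 6, beside 39.5% of all tested genes. Neither transcript that the ASOs are named for passed the threshold, so the groups are called by their labels. These counts measure RNA, and protein was not analysed here.

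**Figure D1:**
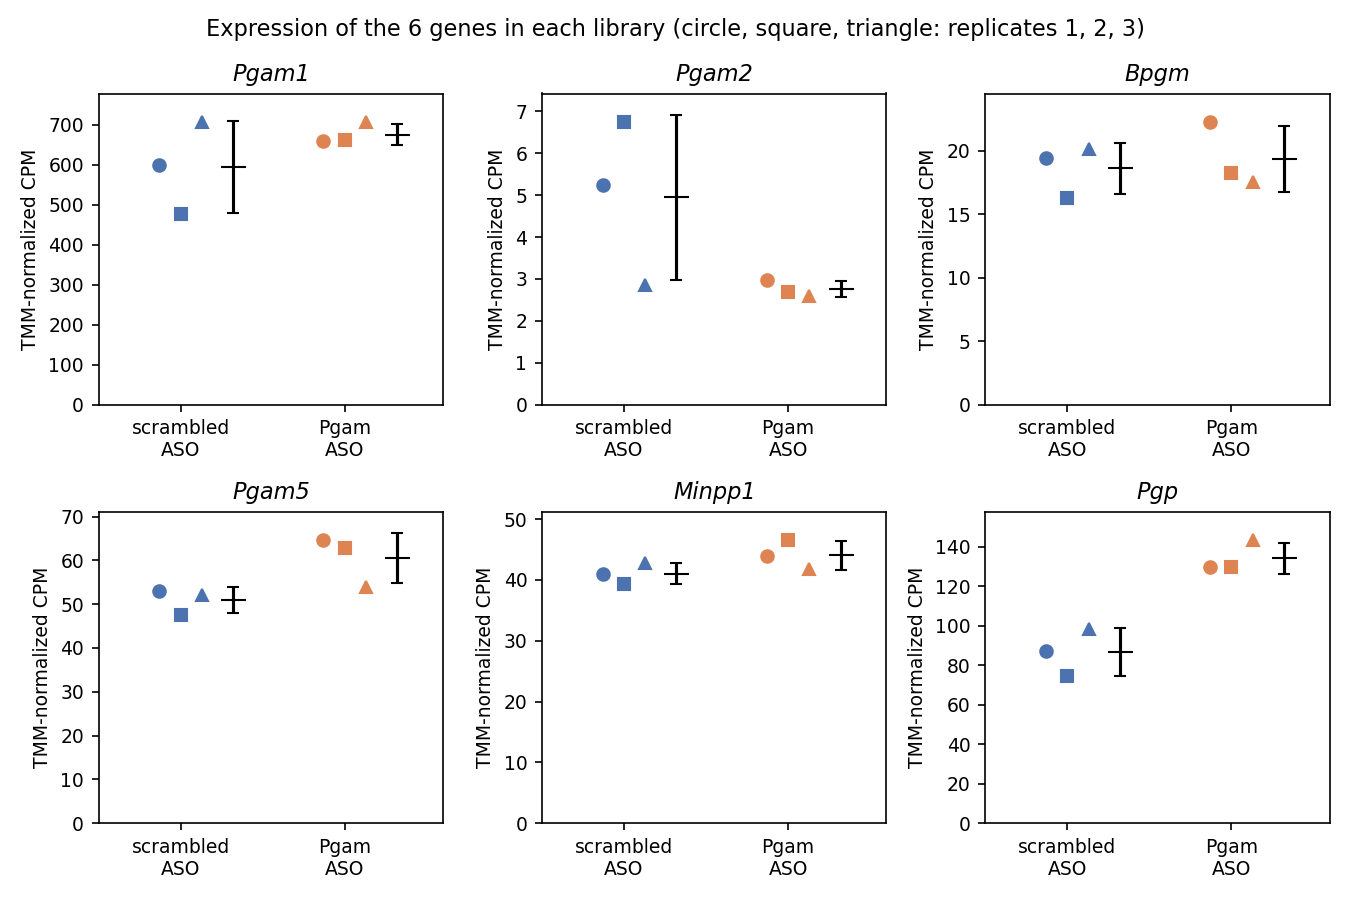
TMM-normalized CPM (vertical axes, from 0) of each gene in each library, by label, with the mean and SD of 3 libraries in black and replicates 1, 2 and 3 as circle, square and triangle. *Pgp* lies at 129 CPM or more in the libraries labelled *Pgam* ASO and at 98.5 CPM or less in the others, and replicate 2 labelled scrambled ASO is the lowest for every gene except *Pgam2*, for which it is the highest.

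Transcript levels of the 6 genes spanned a wide range. Levels between genes were compared as TMM-normalized counts (CPM, scaled to library depth) per kilobase of the longest coding transcript. *Pgam1* led with a mean of 358 CPM per kilobase over the 6 libraries (range 269 to 398). *Pgp* followed with 42.0 (28.4 to 54.5), then *Pgam5* with 26.6 (22.7 to 30.8). *Minpp1* stood at 16.3 (15.0 to 17.8), *Bpgm* at 8.56 (7.35 to 10.04) and *Pgam2* at 4.59 (3.10 to 8.04). The ranges of the neighbours *Pgp* and *Pgam5* overlapped across libraries, as did those of *Bpgm* and *Pgam2*. Within each library *Pgp* nevertheless stood above *Pgam5*. *Bpgm* stood above *Pgam2* in every library except replicate 2 labelled scrambled ASO, where *Pgam2* reached 8.04 and *Bpgm* 7.35 CPM per kilobase. That library was the lowest of all 6 for 5 genes, namely *Pgam1*, *Bpgm*, *Pgam5*, *Minpp1* and *Pgp*, and the highest for *Pgam2*.

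The mutases PGAM1 and PGAM2 come from separate genes, and because the counts are per gene, it matters how far their transcripts can be told apart. *Pgam1* (ENSMUSG00000011752) lies at chr19:41911923-41918660 and *Pgam2* (ENSMUSG00000020475) at chr11:5801640-5803733 in the GENCODE M21 annotation of GRCm38. Their coding sequences, 762 and 759 bases without the stop codon, were identical at 74.4% of aligned positions. *Bpgm* was identical to *Pgam1* at 59.3% and to *Pgam2* at 58.7% of aligned coding positions. The longest stretch that the main transcripts of *Pgam1* and *Pgam2* share is 28 bases, within the coding region of both, and is shown because it is the closest match inside the targeted pair.
shared stretch: aggccatcatggagctgaacctgcccac
It spans bases 733 to 760 of the *Pgam1* transcript and 653 to 680 of the *Pgam2* transcript. Since it is shorter than the 31-base stretches that Kallisto matches by default, the pair shared none of those. No *Pgam2* stretch of 31 bases occurred in another gene, and the same held for *Bpgm* and *Pgp*. *Pgam1* shared 37.1% of its stretches, mainly with the processed pseudogene *Pgam1-ps2*, every stretch of which is also in *Pgam1*. Counts of *Pgam1-ps2* were 150, 112 and 112 in replicates 1 to 3 under the scrambled label and 130, 103 and 142 under the *Pgam* label, far below those of *Pgam1* in each library. The pseudogenes *Pgam1-ps1* and *Gm11203* held 5 counts and 1 count over all libraries. Reads of *Pgam1* and these copies cannot be told apart where the sequence is the same.

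*Pgam1* gave 10655, 8847 and 11414 counts in replicates 1 to 3 under the scrambled label, and 10601, 10299 and 11949 under the *Pgam* label. The groups overlapped, with replicate 2 labelled scrambled ASO lowest. For *Pgam1* the log2 fold change was 0.18 (95% confidence interval -0.10 to 0.46, edgeR adjusted p = 0.331). It was 0.047 without replicate 2 labelled scrambled ASO (edgeR adjusted p = 0.793) and 0.33 without replicate 3 of that label (edgeR adjusted p = 0.0528). *Pgam2* was counted 93, 125 and 46 times in replicates 1 to 3 under the scrambled label, and 48, 42 and 44 times under the *Pgam* label. Replicates 1 and 2 labelled scrambled ASO were high, while replicate 3 of that label lay among the libraries labelled *Pgam* ASO. Its fitted log2 fold change was -0.84 (95% confidence interval -1.54 to -0.15, edgeR adjusted p = 0.0854). Without replicate 2 labelled scrambled ASO it was -0.56 (edgeR adjusted p = 0.286) and without replicate 3 of that label -1.11 (edgeR adjusted p = 0.0144), while the adjusted p ran from 0.139 to 0.220 with any 1 of the other libraries left out. It was -0.83 with no filter on low counts (edgeR adjusted p = 0.0292). Across its alternatives with all libraries the edgeR, DESeq2 or limma-voom adjusted p of *Pgam2* ran up to 0.134. The coefficient of variation of CPM among the 3 libraries labelled scrambled ASO was 19.3% for *Pgam1* and 39.8% for *Pgam2*. Among those labelled *Pgam* ASO it was 4.06% and 7.14%.

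The share of *Pgam2* in the summed counts of both genes needs no scaling between libraries. It was 0.865% (95% Clopper-Pearson interval 0.699% to 1.06%), 1.39% (1.16% to 1.66%) and 0.401% (0.294% to 0.535%) in replicates 1 to 3 under the scrambled label. It was 0.451% (0.333% to 0.597%), 0.406% (0.293% to 0.549%) and 0.367% (0.267% to 0.492%) under the *Pgam* label. These intervals cover counting error only. Replicates 1 and 2 labelled scrambled ASO stood above the other 4 libraries beyond counting error, and replicate 3 of that label did not. The mean share was 0.887% ± 0.496 (SD, n = 3) under the scrambled label and 0.408% ± 0.0420 (SD, n = 3) under the *Pgam* label (exact permutation test, two-sided p = 0.3, where 0.1 is the smallest that 3 libraries against 3 allow). The difference of the means was -0.479 percentage points, and it was -0.225 without replicate 2 labelled scrambled ASO and -0.721 without replicate 3 of that label.

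The mutase step lies between PGK1 and enolase, and PHGDH draws 3-phosphoglycerate away from it toward serine, so *Pgam1* counts were set against these neighbours within each library. The ratios to *Phgdh* and *Gapdh* were planned, and those to *Pgk1* and *Eno1* were not. The log2 ratio of *Pgam1* to *Phgdh* counts was 1.25, 1.17 and 1.24 in replicates 1 to 3 under the scrambled label, and 0.76, 0.79 and 0.99 under the *Pgam* label. All 3 libraries labelled *Pgam* ASO lay below all 3 others. They differed by -0.37 (two-sided exact permutation p = 0.1, which is the smallest possible, and 0.2 after Benjamini-Hochberg adjustment over 4 ratios), so this permutation test, with 3 libraries against 3, cannot place it past 0.05. The log2 ratio of *Pgam1* to *Eno1*, the main enolase gene, was -2.11, -2.27 and -2.08 against -2.09, -2.23 and -2.17 in the same order. These groups overlapped, with a difference of -0.012 (exact permutation test, two-sided p = 0.9, adjusted 0.9). Its sign turned without replicate 1 (0.010) or 3 (0.023) labelled scrambled ASO and without replicate 2 labelled *Pgam* ASO (0.022), and it was -0.070 without replicate 2 labelled scrambled ASO and -0.049 without replicate 1 labelled *Pgam* ASO. For *Pgk1* the log2 ratio was -1.73, -1.83 and -1.70 against -1.38, -1.59 and -1.68. Those labelled *Pgam* ASO were higher without overlap, by 0.20 (exact permutation test, two-sided p = 0.1, adjusted 0.2), and by 0.12 without replicate 1 of that label. Against *Gapdh* the log2 ratio was 1.66, 3.43 and 0.33 under the scrambled label and 2.18, 1.08 and 1.14 under the *Pgam* label, with wide overlap (exact permutation test, two-sided p = 0.8, adjusted 0.9). *Gapdh* itself was counted 3382, 823 and 9103 times under the scrambled label and 2346, 4855 and 5419 times under the *Pgam* label. It ran from 44.4 to 564 CPM, where *Pgk1* ran from 1703 to 2297 CPM. Of the 31-base stretches of *Gapdh*, 28.1% occur in other genes too. The same held for 56.3% of those of *Phgdh*, 54.7% of *Pgk1* and 28.5% of *Eno1*. The difference in the *Gapdh* ratio was -0.34, and it turned to 0.48 without replicate 2 labelled scrambled ASO and to 0.012 with *Gapdh* summed with the genes that share its stretches, an alternative chosen after seeing the data.

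**Figure D2:**
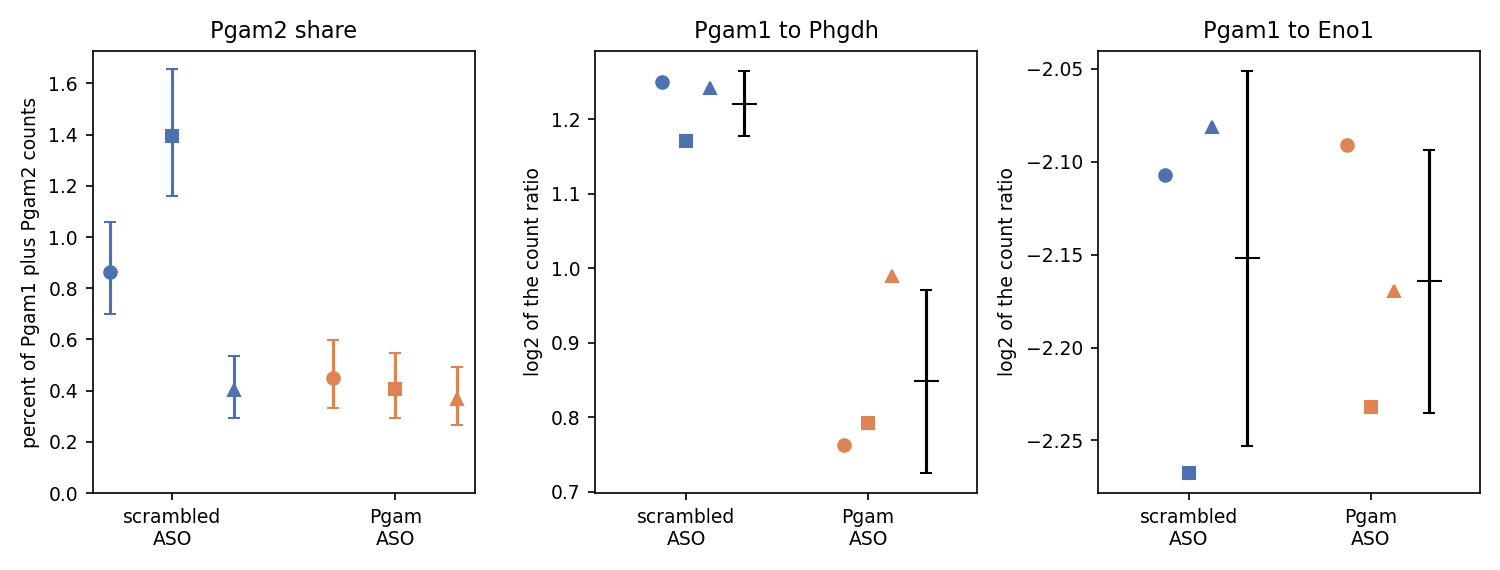
Left, the *Pgam2* share of *Pgam1* plus *Pgam2* counts in percent, with 95% Clopper-Pearson intervals, in each library. Middle and right, the log2 ratio of *Pgam1* counts to *Phgdh* and to *Eno1* counts (vertical axes do not start at 0), with the mean and SD of 3 libraries in black and replicates 1, 2 and 3 as circle, square and triangle. The ratio to *Phgdh* separates the labels, at 1.17 or more against 0.99 or less, and the ratio to *Eno1* does not.

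*Bpgm* (ENSMUSG00000038871, chr6:34476207-34505613) encodes the synthase of 2,3-bisphosphoglycerate. Its counts were 345, 302 and 325 in replicates 1 to 3 under the scrambled label and 359, 285 and 296 under the *Pgam* label. The groups overlapped. The fitted log2 fold change came to 0.057 (95% confidence interval -0.25 to 0.37, edgeR adjusted p = 0.799), and its sign turned without replicate 2 labelled scrambled ASO (-0.031) and without replicate 1 labelled *Pgam* ASO (-0.053). *Minpp1* (ENSMUSG00000024896, chr19:32485769-32515364), the phosphatase of that intermediate and of inositol polyphosphates, had 727, 728 and 690 counts under the scrambled label and 707, 725 and 705 under the *Pgam* label. Its groups overlapped too. On the log2 scale the fold change was 0.10 (95% confidence interval -0.10 to 0.31, edgeR adjusted p = 0.452), and it was 0.063 without replicate 2 labelled *Pgam* ASO (edgeR adjusted p = 0.753). *Minpp1* shared 34.6% of its 31-base stretches, with the pseudogene *Gm12818*, which held 1 count, and with *AC115752.1*, an unclassified transcript inside *Minpp1* that held 85 counts over all libraries.

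*Pgam5* (ENSMUSG00000029500, chr5:110259130-110269913) was counted 944, 882 and 841 times in replicates 1 to 3 under the scrambled label and 1040, 980 and 913 times under the *Pgam* label. In CPM the libraries labelled *Pgam* ASO ran from 54.02 to 64.6 and the others from 47.6 to 53.1, without overlap. Fitted over all 6 libraries, the log2 fold change was 0.25 (95% confidence interval 0.029 to 0.47, edgeR adjusted p = 0.103), which did not pass the threshold. Without replicate 3 labelled *Pgam* ASO it was 0.33 (edgeR adjusted p = 0.0433), and over the other alternatives the adjusted p ran from 0.1001 to 0.290. *Pgam5* shared 58.8% of its 31-base stretches with other annotated genes, mainly with the long noncoding gene *Gm26718*. By its GENCODE M21 ID, *Gm26718* is not among the genes of the deposited counts. The *Pgam5* pseudogene *Gm18827* was at 0 in every library.

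*Pgp* (ENSMUSG00000043445, chr17:24470392-24473110) was counted 1548, 1379 and 1589 times in replicates 1 to 3 under the scrambled label and 2086, 2018 and 2420 times under the *Pgam* label. Every library labelled *Pgam* ASO was above every other library, both in counts and in CPM. The mean was 86.7 ± 11.99 CPM (SD, n = 3) under the scrambled label, and under the *Pgam* label it reached 134.1 ± 7.90 CPM (SD, n = 3). Fitted by edgeR, this was a log2 fold change of 0.63, or 1.55-fold (standard error 0.11, 95% confidence interval 0.39 to 0.87, edgeR adjusted p = 0.00679). It remained between 0.53 and 0.73 whichever library was left out, with an edgeR adjusted p of at most 0.0412. Since *Pgp* shared no 31-base stretch with another annotated gene, none of its reads had to be divided with these.

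**Figure D3:**
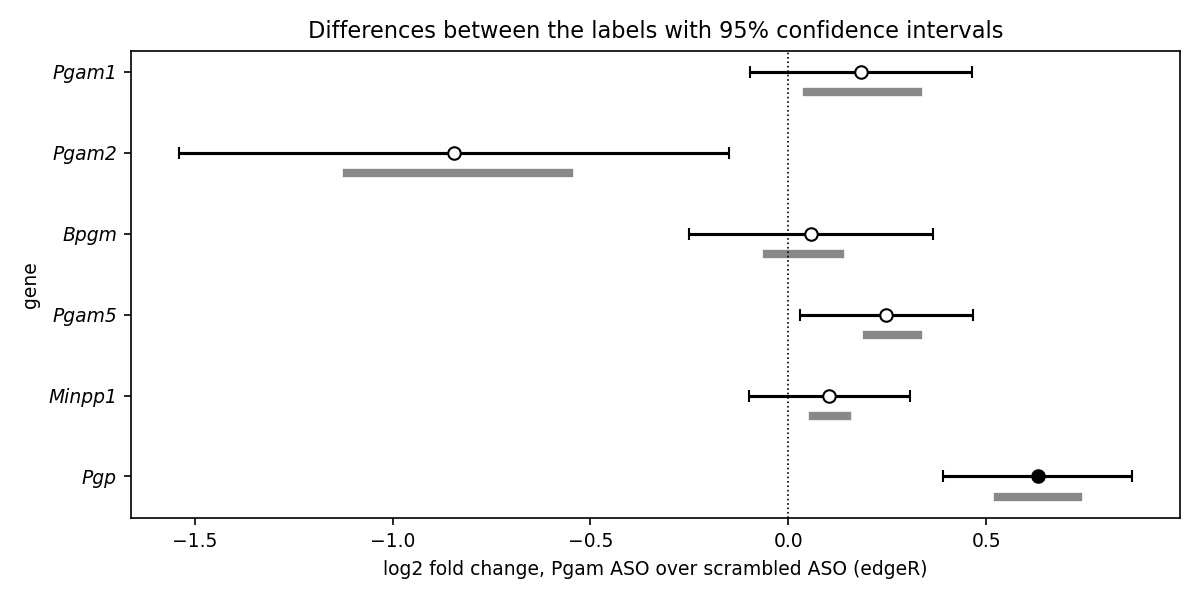
Log2 fold change (horizontal axis) of each of the 6 genes with its 95% confidence interval in black, filled where the edgeR adjusted p is under 0.05, and in grey the range when each library is left out in turn. *Pgp*, at 0.63, is the only filled point, and the grey range of *Bpgm* crosses 0.

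The windows before the start sites of *Pgp* and of the targeted pair are shown because *Pgp* was the gene that passed and the pair carries the label. RefSeq (GRCm38.p6) held a promoter entry for 5 of the 6 genes, with *Pgam5* missing. Each window holds 216 bases, from 250 to 35 bases before the RefSeq start. They are chr17:24470176-24470391 on the plus strand for *Pgp*, chr19:41911621-41911836 on the plus strand for *Pgam1* and chr11:5803831-5804046 on the minus strand for *Pgam2*. Capitals mark matches, on either strand, to motifs picked with the results in view. These were the E-box with the letters CACGTG. The promoter element written CCAAT was searched as well. The last was the GC box, read as GGGCGG.
Pgp: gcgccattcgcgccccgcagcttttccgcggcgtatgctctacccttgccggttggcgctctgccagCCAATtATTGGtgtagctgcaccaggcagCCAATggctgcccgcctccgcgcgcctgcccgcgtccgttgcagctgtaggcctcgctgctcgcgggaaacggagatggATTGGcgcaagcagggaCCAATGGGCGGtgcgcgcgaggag
Pgam1: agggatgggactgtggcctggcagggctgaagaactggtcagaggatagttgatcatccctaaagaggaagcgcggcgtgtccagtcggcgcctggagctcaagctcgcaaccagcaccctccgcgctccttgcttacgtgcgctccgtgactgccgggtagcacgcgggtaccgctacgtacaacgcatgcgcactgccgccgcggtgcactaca
Pgam2: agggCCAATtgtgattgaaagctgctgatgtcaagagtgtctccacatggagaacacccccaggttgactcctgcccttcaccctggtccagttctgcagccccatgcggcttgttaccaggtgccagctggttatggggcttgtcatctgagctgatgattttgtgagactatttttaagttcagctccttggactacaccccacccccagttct
The *Pgp* window, at 67.6% G and C, held 5 matches to CCAAT and 1 to GGGCGG. The latter begins right after the last of the former, without overlap. The *Pgam1* window, at 63.4% G and C, held none of these motifs. The *Pgam2* window, at 52.3% G and C, held 1 match to CCAAT. Among 32851 promoter windows of the same length, 30.5% held the letters CCAAT at least once. How many of these windows held several matches was not counted. The GC box was in 27.9% of the 32851 windows and the E-box in 4.89%. A match describes letters and not binding.

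Enzymes from GAPDH to pyruvate kinase, of serine synthesis from 3-phosphoglycerate and glycerate kinase were listed as those at or next to the mutase step, and they gave a mixed picture. Of 15 listed, 12 were tested, 3 rose and 1 fell, where 8.03% of all tested genes rose and 9.15% fell. The median log2 fold change was 0.016 beside -0.0061 over all tested genes. The risers were the 3 enzymes of serine synthesis from 3-phosphoglycerate, *Psat1*, *Psph* and *Phgdh*. *Phgdh*, its first enzyme, had 4479, 3930 and 4824 counts under the scrambled label and 6248, 5944 and 6019 under the *Pgam* label. Every library labelled *Pgam* ASO was higher. The log2 fold change was 0.88 for *Psat1* (edgeR adjusted p = 0.00513), 0.76 for *Psph* (0.00165) and 0.56 for *Phgdh* (0.0149). *Phgdh* lost the threshold without replicate 1 labelled scrambled ASO (edgeR adjusted p = 0.0652) and without replicate 2 labelled *Pgam* ASO (0.0827). *Eno2*, a minor enolase gene here, fell by 0.77 on the log2 scale (edgeR adjusted p = 0.0330), which was lost without replicate 1 or 2 of either label (adjusted p up to 0.141). *Eno1* was the most abundant gene of the list over all 6 libraries, at 1395 CPM per kilobase, though *Pkm*, named after its values were seen, stood above it under the scrambled label (1329 against 1295). *Eno1* differed by 0.21 on the log2 scale (edgeR adjusted p = 0.185). It was 0.31 without replicate 3 labelled scrambled ASO, which passed the threshold (edgeR adjusted p = 0.0359), and 0.12 without replicate 2 of that label (edgeR adjusted p = 0.437). *Pgk1* differed by -0.0029 (edgeR adjusted p = 0.990), and its sign turned with RLE size factors.

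The histidine phosphatase superfamily holds the relatives of PGAM1, PGAM2, BPGM, PGAM5 and MINPP1 by fold, while PGP belongs to another phosphatase family. Of 14 other superfamily genes, 13 were tested, 1 rose and 3 fell (beside 8.03% and 9.15% of all tested genes), with a median log2 fold change of -0.18. *Tigar*, a fructose bisphosphatase that also hydrolyses 2,3-bisphosphoglycerate, had 369, 289 and 331 counts under the scrambled label and 618, 447 and 417 under the *Pgam* label. Every library labelled *Pgam* ASO was higher, and its log2 fold change was 0.69 (edgeR adjusted p = 0.0277). Those that fell were the acid phosphatases *Acpp* (-1.06, edgeR adjusted p = 0.0330) and *Acp6* (-0.74, 0.0116) and the phosphatase of T cell receptor signaling *Ubash3b* (-0.47, 0.0126). Its paralog *Ubash3a* differed by -0.075 (edgeR adjusted p = 0.723), which became 0.085 without replicate 2 labelled scrambled ASO. *Tigar* and *Acpp* lost the threshold without replicate 1 or 2 of either label (adjusted p up to 0.0935 and 0.106), and *Acpp* also with limma-voom (adjusted p = 0.0522). The log2 fold change of *Acpp* was -0.65 without replicate 2 labelled scrambled ASO (edgeR adjusted p = 0.0903), where it had 287 counts, beside 138 and 126 in the other libraries of that label. *Acp6* and *Ubash3b* lost it without replicate 1 labelled scrambled ASO or replicate 2 labelled *Pgam* ASO (adjusted p up to 0.0730 and 0.0823). *Ubash3b* was the most abundant of the list over all 6 libraries, at 22.5 CPM per kilobase.

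A list of 13 genes held proteases, partners and substrates of PGAM5 and genes linked to these, such as *Kcnn4* and *Phpt1*. Of the 13, 12 were tested, 1 rose and 1 fell (beside 8.03% and 9.15% of all tested genes). The median log2 fold change was 0.085. *Phb2*, a prohibitin of the inner mitochondrial membrane, was the most abundant at 187 CPM per kilobase and differed by 0.42 on the log2 scale (edgeR adjusted p = 0.0499). It lost the threshold in 8 of 14 alternatives, among them those without replicate 1 or 2 of either label (adjusted p up to 0.172). *Kcnn4*, a potassium channel of activated T cells, fell by 0.40 on the log2 scale (edgeR adjusted p = 0.0130). Its call was lost without replicate 1 labelled scrambled ASO or replicate 2 labelled *Pgam* ASO (adjusted p up to 0.0893). *Nme2*, the histidine kinase of that channel and a substrate of PGAM5, was counted 11 to 24 times per library (log2 fold change 0.31, edgeR adjusted p = 0.646), and *Phpt1*, a phosphohistidine phosphatase, 2 to 11 times, too few to be tested. The log2 fold change of *Nme2* was 0.13, 0.073 and 0.83 without replicates 1, 2 and 3 labelled scrambled ASO, in that order. Both *Nme2* and *Phpt1* share stretches with other genes, at 47.9% and 36.3%. The pseudogenes *Gm7730* and *Gm5425*, which share stretches with *Nme2*, held 801 and 405 counts over all libraries.

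MINPP1 also acts on inositol polyphosphates. Of 15 kinases and phosphatases of that pathway, 12 were tested, 3 rose and 2 fell (beside 8.03% and 9.15% of all tested genes), with a median log2 fold change of 0.047. *Ippk* (0.48, edgeR adjusted p = 0.0363), which makes the inositol hexakisphosphate that MINPP1 degrades, *Nudt3* (0.44, 0.0138) and *Itpk1*, named after its value was seen (0.35, 0.0250), rose. The inositol hexakisphosphate kinases *Ip6k1* (-0.68, edgeR adjusted p = 0.0116) and *Ip6k2* (-0.47, 0.0460) fell. *Ip6k1* had the highest mean of the list over all 6 libraries, at 25.1 CPM per kilobase. It was highest under the scrambled label too (30.95), but under the *Pgam* label (19.3) it stood below *Nudt3* (27.1) and others. *Ippk* and *Ip6k2* lost the threshold without replicate 1 or 2 of either label (adjusted p up to 0.138 and 0.149), *Ip6k1* without replicate 2 labelled *Pgam* ASO (0.0791), and *Nudt3* without replicate 1 labelled scrambled ASO or replicate 1 or 2 labelled *Pgam* ASO (up to 0.0726). Whether the call of *Itpk1* holds in the alternatives was not examined.

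PGP works among enzymes that clear metabolic side products and handle glycerol 3-phosphate. Of 14 such genes, 12 were tested, with a median log2 fold change of 0.26. At an edgeR adjusted p under 0.05, 2 rose and 0 fell, beside 8.03% and 9.15% of all tested genes. At an unadjusted p under 0.05 these counts were 6 and 0, and with DESeq2 3 and 0. Of all tested genes, 17.2% were higher and 17.7% lower at an unadjusted edgeR p under 0.05, and DESeq2 called 11% higher and 11.8% lower of the 14067 genes to which it gave an adjusted p. *Gk*, glycerol kinase, had 301, 228 and 309 counts under the scrambled label and 512, 469 and 404 under the *Pgam* label, without overlap. Its log2 fold change was 0.83 (edgeR adjusted p = 0.0147). *Gk* lost the threshold without replicate 1 labelled scrambled ASO or replicate 1 or 2 labelled *Pgam* ASO (adjusted p up to 0.0827). *Pdxp*, the closest paralog of *Pgp*, differed by 0.30 on the log2 scale (edgeR adjusted p = 0.1396). *Park7*, the most abundant at 148 CPM per kilobase, differed by 0.29 (edgeR adjusted p = 0.111).

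**Figure D4:**
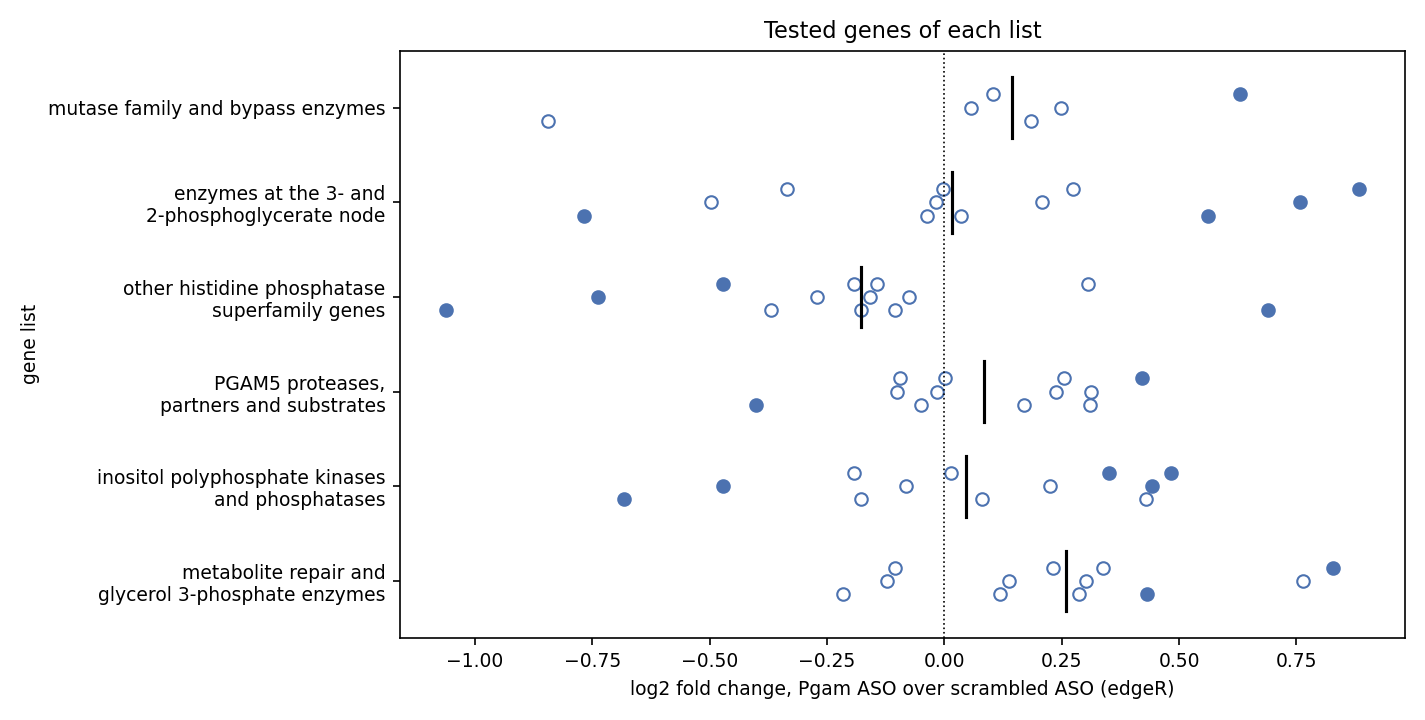
Log2 fold change (horizontal axis) of each tested gene in 6 lists, 1 point a gene, filled where the edgeR adjusted p is under 0.05, with the median of each list as a black bar. Points are spread vertically within a list for legibility. The medians lie between -0.18 and 0.26.

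The genes nearest to each of the 6 in profile were sought among 9507 tested genes of mean log2 CPM of at least 3, by the root mean square (RMS) difference of centred log2 CPM over the 6 libraries. Nearest to *Pgp* were *Metrn*, *St3gal2* and *Dhcr7*, with differences of 0.036, 0.040 and 0.051. Nearest to *Pgam1* were *Gm4735* (0.031), *Irs2* (0.042) and *Galk1* (0.049). *Gm4735* is a processed pseudogene with 89.5% of its 31-base stretches also in *Eno1*, and its reads cannot be told apart from those of enolase where the sequence is the same. Those of *Pgam2* lay farther off, namely *Pnpla7* (0.13), *Aff3* (0.14) and *Tle4* (0.17). The nearest genes were *Coq10b*, *Wdr73* and *Csnk1e* for *Bpgm* (0.028 to 0.038), *Dlst*, *Mtrex* and *Polr2c* for *Pgam5* (0.015 to 0.019) and *Mapkap1*, *Tm9sf1* and *Ecpas* for *Minpp1* (0.0085 to 0.018). The differences are descriptions over these 6 libraries.

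Markers were read to see which cells the values may come from. Naïve CD4 cells had been obtained by negative selection before the culture, a step meant to remove other blood cells. All 9 listed T cell markers were tested, led by *Cd2* at 391 CPM per kilobase. Of these only *Cd4* separates CD4 from other T cells. Its log2 fold change, named after it was seen, was -0.21 (edgeR adjusted p = 0.0869). The summed level of the 9 was 3589, 3779 and 3402 CPM in replicates 1 to 3 under the scrambled label and 2976, 3021 and 3102 CPM under the *Pgam* label, lower without overlap. Of the 9, 3 fell, namely *Cd28* (-0.66, edgeR adjusted p = 0.00183), *Cd5* (-0.49, 0.0193) and *Trac* (-0.30, 0.0416), and 0 rose. Of all tested genes, 9.15% fell and 8.03% rose. The log2 fold change was above 0 for *Cd2* (0.025, edgeR adjusted p = 0.860) and for *Lck*, named after its value was seen (0.068, edgeR adjusted p = 0.564), and the groups overlapped for both. At an unadjusted edgeR p under 0.05, 7 were lower and 0 higher, where 17.7% and 17.2% of all tested genes were. DESeq2 called 4 lower and 0 higher, beside 11.8% and 11% of the genes to which it gave an adjusted p. *Cd5* lost the threshold without replicate 1 labelled scrambled ASO or replicate 2 labelled *Pgam* ASO (adjusted p up to 0.106) and *Trac* without replicate 1 or 2 of either label (up to 0.153). In bulk RNA, fewer cells of a type and less RNA per cell cannot be told apart, and the part of these markers in the difference of *Pgp* was not tested.

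*Bpgm* and *Pgam2* are best known from red cells and muscle. Of 10 erythroid markers 9 were matched and 3 tested, with a median log2 fold change of -0.57. By edgeR 0 were called, beside 9.15% of all tested genes lower and 8.03% higher. At an unadjusted edgeR p under 0.05, 1 was lower and 0 higher, beside 17.7% and 17.2%. DESeq2 called 0, beside 11.8% lower and 11% higher of the genes to which it gave an adjusted p. *Hba-a1*, the most abundant per length, had 7 to 15 counts. *Hba-a2* was listed at 0 in every library, but 92.6% of its 31-base stretches occur in *Hba-a1*, so its reads may be counted there. Their summed level was 4.33, 3.29 and 2.66 CPM under the scrambled label and 1.68, 2.44 and 3.02 CPM under the *Pgam* label, with overlap. Of 12 skeletal muscle markers 3 were tested, with a median log2 fold change of -0.94. By edgeR 0 were called, beside 9.15% of all tested genes lower and 8.03% higher. At an unadjusted edgeR p under 0.05, 2 were lower and 0 higher, beside 17.7% and 17.2%. DESeq2 called 1 lower and 0 higher, beside 11.8% and 11% of the genes to which it gave an adjusted p. Among the defining markers *Myh1*, *Myh2* and *Myh4* were at 0 in every library and *Ckm* had at most 2 counts. The summed muscle markers gave 15.5, 18.8 and 12.3 CPM under the scrambled label and 9.25, 10.2 and 13.8 CPM under the *Pgam* label, with overlap. *Mylpf*, the most abundant per length, was counted 138, 159 and 109 times under the scrambled label and 89, 114 and 150 times under the *Pgam* label. Its groups overlapped (log2 fold change -0.090, edgeR adjusted p = 0.793), with replicate 3 labelled *Pgam* ASO the highest in CPM. *Pygm*, named after its values were seen, was counted 74, 93 and 50 times under the scrambled label and 40, 22 and 42 times under the *Pgam* label, highest in replicate 2 labelled scrambled ASO, as was *Pgam2*. The log2 fold change of *Pygm* was -0.94 (edgeR adjusted p = 0.0573). *Tnnt3*, also named after its values were seen, was counted 39, 70 and 29 times under the scrambled label and 10, 16 and 30 times under the *Pgam* label. It too was highest in replicate 2 labelled scrambled ASO, and the libraries of replicate 3 lay close together, at 1.80 and 1.78 CPM (log2 fold change -1.18, edgeR adjusted p = 0.0840). That library was also the highest in CPM for genes outside the muscle list, such as *Cd4*, *Cd5* and *Ubash3a*, though not for *Cd2* or *Lck*. A peak there is therefore not particular to muscle genes. The part of the muscle markers in the *Pgam2* difference was not tested.

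Of 12 markers of CD8 T cells, B cells, myeloid and NK cells, 8 were tested, with a median log2 fold change of -0.21. By edgeR 1 rose and 0 fell, beside 8.03% and 9.15% of all tested genes. At an unadjusted edgeR p under 0.05, 2 were higher and 1 lower, beside 17.2% and 17.7%. DESeq2 called 2 higher and 1 lower, beside 11% and 11.8% of the genes to which it gave an adjusted p. *Cd8a* had 44, 57 and 36 counts under the scrambled label and 113, 57 and 106 under the *Pgam* label (log2 fold change 1.12, edgeR adjusted p = 0.0286). It lost the threshold without replicate 1 of either label (adjusted p of 0.0989 and 0.1004). *Cd8b1*, the most abundant at 5.85 CPM per kilobase, differed by -0.20 on the log2 scale (edgeR adjusted p = 0.454). The summed level of the 12 was 22.6, 27.4 and 17.8 CPM under the scrambled label and 24.5, 20.0 and 25.7 CPM under the *Pgam* label, and the groups overlapped. *Klrb1c* was at 0 in every library.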

How the data were processed

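RNA-seq was made from 6 libraries in 2 labelled groups of 3. Estimated counts by Ensembl gene, from Kallisto and not normalized, were deposited by the authors in a single table, and the submitters' processing notes name GRCm38. The values were whole numbers, so rounding changed none. Of 56748 genes, 52073 matched GENCODE M21 by ID and sharing with the other 4675 was not examined. Every column was used.

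In R 4.3.3 with edgeR 4.0.16, genes kept by filterByExpr were scaled by TMM and compared by the quasi-likelihood test (robust, two-sided). The code was also run on simulated data drawn with a common dispersion, which does not measure its error rate in these data. Log2 CPM used a prior count of 2. Permutation tests were run in scipy 1.17.1 and coding sequences aligned globally with Biopython 1.88. Intervals were at 95% and floors at 3 counts.

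Genes named were the 6, genes sharing at least 10% of 31-base stretches with them, *Gapdh*, *Pgk1*, *Eno1*, *Phgdh*, *Ubash3a*, *Ubash3b*, *Tigar*, *Nme2*, *Phpt1*, *Kcnn4*, each list's most abundant gene per length, up to 4 per list with the largest change among those called, and the 3 nearest profiles per gene. Any other gene named, such as *Pdxp* and markers at or near 0, was chosen after its values were seen. The genes and lists were chosen with earlier results of these data known. *Ahsp* was not matched, *Acpt* was matched as *Acp4*, and *Ppip5k1* and *Ppip5k2* are on 2 lists. A gene of the lists is not reported here on its own. Alternatives were RLE, library size alone, other filters, DESeq2 1.42.0, limma 3.58.1 (voom), a replicate block, left-out libraries, an adjusted p under 0.01, ribosomal and mitochondrial genes left out, and genes summed with those sharing reads.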

Additional observations from a re-analysis of the deposited data

How the results depend on the processing

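*Pgp*, *Psat1*, *Psph* and *Cd28* kept their direction and an adjusted p under 0.05 in every alternative tried for them. The number of the 6 genes called, 1, became 2 with no filter on low counts, 2 without replicate 3 labelled scrambled ASO and 2 without replicate 3 labelled *Pgam* ASO, and ran from 1 to 2 with 1 library left out. The number of genes called, 2565, was 1235 with replicate number as a block and 453 at an adjusted p under 0.01, and ran from 391 to 3484 with 1 library left out. It was 3732 with no filter and 3213 with DESeq2. The log2 fold change of *Pgam2* was -0.83 with no filter (edgeR adjusted p = 0.0292) and ran from -1.11 to -0.56 with 1 library left out, and it has no summed value because no gene shares its stretches. That of *Pgam1* ran from 0.047 to 0.33 with 1 library left out. The *Pgam1* to *Gapdh* log2 ratio differed by -0.34, by 0.012 with *Gapdh* summed with genes that share reads, and by -1.07 to 0.48 with 1 library left out. The *Pgam1* to *Phgdh* difference ran from -0.44 to -0.33 and that of the *Pgam2* share from -0.72 to -0.23 percentage points with 1 library left out. The *Pgam1* to *Pgk1* and *Pgam1* to *Eno1* log2 ratios were not planned, and leaving out libraries was added for them after seeing the data. With 1 library left out, the former differed by 0.12 to 0.27 and the latter by -0.070 to 0.023. Signs also turned for *Bpgm* (-0.053 to 0.13 with 1 library left out), *Ubash3a* (-0.21 to 0.085), *Gapdh* (0.54 with limma-voom, 0.41 with the block, -0.54 to 1.15 with 1 library left out) and *Pgk1* (0.0015 with RLE, 0.0070 with no filter, 0.0014 with DESeq2, -0.11 to 0.11 with 1 library left out). The cause was not tested.

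Replicate numbers do not pair the libraries as far as the labels say, and deviations of equal numbers correlated across genes at r = 0.053, -0.034 and -0.24, and not every library correlated best with its own number, so the block was an alternative only. With the block the log2 fold change of *Pgp* was 0.64 (edgeR adjusted p = 0.0141), that of *Pgam1* 0.20 (0.286) and that of *Pgam2* -0.77 (0.129), and 15 of the 21 called genes that the rule for named genes picked kept an adjusted p under 0.05. Among those that did not were *Phb2* (edgeR adjusted p = 0.0865), *Ippk* (0.0728), *Ip6k2* (0.0874), *Trac* (0.10004) and *Cd8a* (0.0699). The lower depth of *Pgam2*, *Nme2* and *Phpt1* limits what can be seen for them.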
